A study of Mus musculus with 18 samples.

Results

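A group of 10 genes of the NF-kB pathway was followed through Gstt1 knockdown in mouse pancreatic cancer metastasis lines. It holds the subunit genes Nfkb1, Nfkb2, Rela and Relb, the inhibitor genes Nfkbia and Nfkbie, and Nfkbiz, the gene of an atypical nuclear IkB protein. It also holds Tnip1, Tnfaip3 and Birc3, which act at the receptor complexes upstream. All members were taken by gene symbol from the deposited expression table. All 10 were found among its 16383 genes and passed the filter on low values that left 12931 genes for testing. Tnip1 was chosen by its CPM values, because its NT control and knockdown libraries do not overlap, so its knockdown values are a description and carry no test. The remaining members were named for their place in the pathway, with earlier results of these data known.

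NF-kB is a family of dimeric transcription factors held inactive in the cytoplasm by IkB proteins. Signals from receptors such as those for TNF and interleukin-1 are relayed through ubiquitin chains to a kinase complex that marks the IkB proteins for degradation, after which the dimers enter the nucleus. Several of the genes they switch on encode inhibitors of the same pathway, so that a signal normally limits itself.

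RNA was sequenced in 18 libraries of 6 lines grown from spontaneous metastases of pancreatic ductal adenocarcinoma, lines 42-3 and 6-2 from the lung and lines 42-2, G45-2, 6-3 and 13-2 from the liver. All cells received lentivirus and puromycin for 48 h, with an NT control hairpin (8 libraries), Gstt1 shRNA 1 (6) or Gstt1 shRNA 2 (4), and were grown in RPMI with 10% fetal bovine serum. Gstt1 encodes a theta-class glutathione S-transferase. The libraries were grouped here into 8 culture sets, in which 1 NT control stands beside 1 or 2 knockdowns of its line, and lines 42-3 and 42-2 gave 2 sets each. Both hairpins are present in the G45-2 and 6-3 sets, where they share a control. Only shRNA 2 is present in the second 42-3 and second 42-2 sets and only shRNA 1 in the first 42-3, 6-2, first 42-2 and 13-2 sets. The genotype label includes SIRT6F/F/p48-Cre/p53F/+ in the first 42-3 set, p48+/Tp53F/+ in the 13-2 set and SIRT6F/Fp48+/Tp53F/+ in the other 6 sets. The p48 promoter is that of a pancreatic lineage gene, so that Cre acts in the pancreas and its descendants. No label says that libraries of a line come from separate cultures, so p-values measure the spread between these libraries.

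Library totals ranged from 8411436 to 25552912 reads, at which 3 reads correspond to 0.117 to 0.357 CPM (reads of a gene scaled to the library total). Gstt1 was lower than in the own control in all 10 knockdown libraries, at 0.6% to 75.4% of it, the highest share being that of shRNA 1 in 6-3. Line 42-2 had little Gstt1 even in its controls. It was at 2.67 CPM in the control and 0.373 CPM with shRNA 1 in the first 42-2 set. In the second 42-2 set it was at 0.616 CPM (8 reads) and 0.0687 CPM with shRNA 2 (1 read). Controls of the other lines were at 24.3 to 52.5 CPM. In 5 sets (first 42-3, second 42-3, 6-2, first 42-2 and 13-2) control and knockdown differed at least 10-fold in 2 or more of 7 identity transcripts used to tell lines apart (Y-linked genes, Xist, Cdkn2a and Cdkn2b), where the higher value is at least 10 CPM. With a limit of 1 CPM the second 42-2 set did so too, whereas G45-2 differed in 1 of the 7 and 6-3 in 0. All 3 lung sets are among the 5, so comparisons of lung with liver knockdown rest on them. All 8 epithelial markers were present, with a summed level of 539 to 15156 CPM (median 10046) in controls and 375 to 7683 CPM (median 4407) in knockdowns, and 7 of 8 had a fitted knockdown difference below 0. Of 9 macrophage and leukocyte markers 6 are in the table, with a summed level of 95.2 to 875 CPM (median 285) in controls and 20.6 to 226 CPM (median 104) in knockdowns. Most of it was Cd14, at a mean of 401 and 86.6 CPM, while Ptprc was at most 1.67 CPM and Csf1r at most 1.91 CPM in any library. Fibroblast markers summed to 5.79 to 2917 CPM (median 93.3) in controls and 4.08 to 6452 CPM (median 249.7) in knockdowns. Both highest sums were those of the second 42-2 set, which also had the lowest epithelial sums (539 and 375 CPM). This set is kept when the 5 sets are left out. In the first 42-3 set the fibroblast sum was 58.4 CPM in the control and 3877 CPM with shRNA 1, and the epithelial sum 12324 and 1488 CPM. In such bulk libraries fewer cells of a type and less RNA per cell cannot be told apart, and the part of these markers in the results was not tested.

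Of the 10 members 7 matched an entry of a RefSeq promoter table (build GRCm38.p6, 250 bases before to 50 after the annotated start), and Nfkbiz, Nfkb1 and Relb did not. Both strands were searched for the kB consensus, the sequence class that NF-kB dimers bind, and for the looser form GGGNNNNNCC, within which every consensus match also lies. Tnip1, Tnfaip3, Nfkbia, Nfkbie and Nfkb2 hold a consensus match in at least 1 window and Birc3 and Rela hold none, against 8.46% of 32851 promoters in the table (9.55% of 27025 genes). The looser form occurs in all 7 and in 50.8% of promoters. Shown here are the 150 bases just before the start of the 5 members with a match and of Birc3, the member without a match whose knockdown difference was the largest. Tnip1 is at chr11:54962941-54963090 (minus strand), Tnfaip3 at chr10:19015411-19015560 (minus), Nfkbia at chr12:55492648-55492797 (minus), Nfkbie at chr17:45555550-45555699 (plus), Nfkb2 at chr19:46304587-46304736 (plus) and Birc3 at chr9:7873171-7873320 (minus). For Tnfaip3 and Nfkb2, which have more than 1 annotated start, the first is shown. Each is written on the strand of the gene, and capitals mark kB consensus matches on either strand.
Tnip1: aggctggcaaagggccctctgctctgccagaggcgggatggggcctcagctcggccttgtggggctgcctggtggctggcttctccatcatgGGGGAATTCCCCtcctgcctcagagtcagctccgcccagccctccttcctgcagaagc
Tnfaip3: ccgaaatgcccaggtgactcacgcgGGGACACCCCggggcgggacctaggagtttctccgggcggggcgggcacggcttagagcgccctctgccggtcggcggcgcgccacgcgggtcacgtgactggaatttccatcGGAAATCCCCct
Nfkbia: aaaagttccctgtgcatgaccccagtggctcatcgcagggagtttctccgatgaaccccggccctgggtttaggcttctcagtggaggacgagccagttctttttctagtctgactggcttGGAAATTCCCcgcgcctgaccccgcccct
Nfkbie: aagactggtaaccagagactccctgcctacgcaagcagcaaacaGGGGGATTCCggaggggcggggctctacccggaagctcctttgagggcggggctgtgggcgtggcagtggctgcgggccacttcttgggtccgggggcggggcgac
Nfkb2: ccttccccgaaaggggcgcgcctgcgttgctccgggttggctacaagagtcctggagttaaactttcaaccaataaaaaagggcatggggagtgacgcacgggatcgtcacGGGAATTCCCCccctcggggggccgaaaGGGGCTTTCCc
Birc3: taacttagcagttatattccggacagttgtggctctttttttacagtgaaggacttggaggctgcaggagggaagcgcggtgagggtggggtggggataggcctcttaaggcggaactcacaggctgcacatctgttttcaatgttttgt
In Tnip1 the matches merge into the palindrome GGGGAATTCCCC from 58 to 47 bases before the start, which contains 4 overlapping matches counting both strands. In Nfkb2 a shorter form of the same run, GGGAATTCCCC, lies from 39 to 29 bases before the start, with a separate match, GGGGCTTTCC, from 11 to 2 bases before it. Tnfaip3 has a match at 125 to 116 bases, found on both strands, and another on the opposite strand at 12 to 3 bases before its start. Nfkbia and Nfkbie have a single match each, at 29 to 20 and at 106 to 97 bases before the start. A match is a description of the letters and not evidence that the site is bound.

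Tnip1 (ENSMUSG00000020400) encodes ABIN1, a ubiquitin-binding protein that recruits the deubiquitinase A20 to receptor complexes and restrains NF-kB signalling and cell death. It was lower in every knockdown library than in any NT control. In the lung sets Tnip1 was at 149 CPM in the control and 74.6 CPM with shRNA 1 (first 42-3), at 277 and 86.4 CPM with shRNA 2 (second 42-3) and at 199.7 and 78.6 CPM with shRNA 1 (6-2). In the liver sets it was at 225 and 75.8 CPM with shRNA 1 (first 42-2), at 133 and 77.3 CPM with shRNA 2 (second 42-2) and at 353 and 131 CPM with shRNA 1 (13-2). In the sets with both hairpins it was at 175 CPM in the control, 107 CPM with shRNA 1 and 116 CPM with shRNA 2 (G45-2), and at 189, 107 and 96.2 CPM (6-3). The 13-2 line had the highest level in both conditions, and its knockdown value of 131 CPM is the one nearest to the controls, at 98.3% of the lowest control. The separation of the groups is therefore narrow at its edge.

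Expressed as a share of the own control, Tnip1 was at 31.2% in the second 42-3 set, 33.7% in the first 42-2 set, 37.1% in 13-2 and 39.4% in 6-2. It was at 50.2% in the first 42-3 set, 51.0% and 56.8% in 6-3 (shRNA 2 and shRNA 1), 58.0% in the second 42-2 set, and 61.2% and 66.4% in G45-2 (shRNA 1 and shRNA 2). The G45-2, 6-3 and second 42-2 sets, which differ in at most 1 of the identity transcripts at the limit of 10 CPM, hold the 5 highest shares. Between the hairpins, the residual Gstt1 share followed the order of the Tnip1 share in 6-3 and the opposite order in G45-2. In 6-3 the Gstt1 share was 75.4% for shRNA 1 and 0.98% for shRNA 2, while the Tnip1 share was 56.8% and 51.0%. In G45-2 the Gstt1 share was 54.5% and 11.8% and the Tnip1 share 61.2% and 66.4%.

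The group means of Tnip1 were 212 ± 72.2 CPM in NT controls (SD, n = 8), 95.7 ± 23.0 CPM with shRNA 1 (n = 6) and 94.0 ± 16.6 CPM with shRNA 2 (n = 4). The fitted knockdown difference, the mean of the effects of both hairpins on the log2(CPM + 1) scale with the culture set as a block, was -1.12 (SE 0.15), and it was -0.77 (SE 0.17) without the 5 sets of differing identity transcripts and -0.77 (SE 0.21) without the second 42-2 set as well. These SEs do not allow for the choice of Tnip1 on this comparison, and the refits are a description too. Non-overlap with lower knockdowns was found for 11 of 12931 genes (0.0851%) and with higher knockdowns for 13 (0.101%). Among the members it was found for Tnip1 alone, which was chosen for it. The NT controls of the same line differed 1.86-fold between the 42-3 sets and 1.69-fold between the 42-2 sets, and the range over all 8 controls was 2.65-fold. Control and knockdown libraries carry different library codes in 6-3 and 13-2, and Tnip1 was lower in 3 of 3 such knockdown libraries (-1.42 to -0.81) and in 7 of 7 with the same code (-1.67 to -0.59). Both counts were fixed by the choice of Tnip1, so the part of the library code was not tested.

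**Figure D1:**
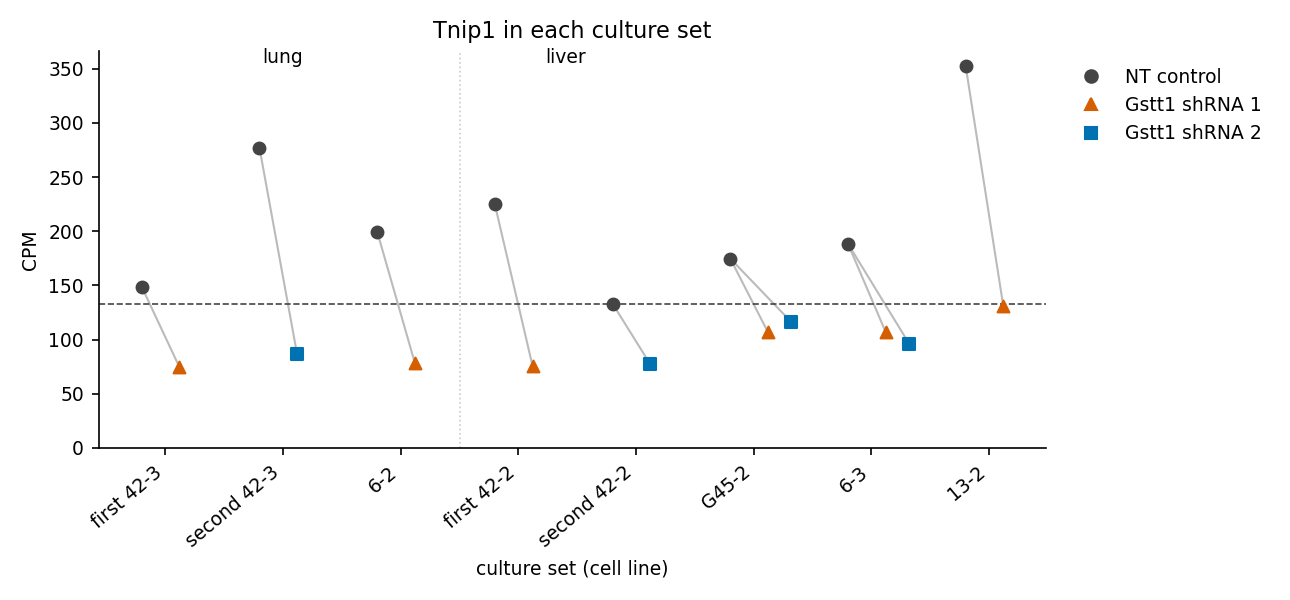
Tnip1 level in CPM (vertical axis, linear from 0) in each library, arranged by culture set with lung sets left of the dotted line; circles are NT controls, triangles shRNA 1 and squares shRNA 2, grey lines join a knockdown to its own control, and the dashed line marks the lowest control (133 CPM). All 10 knockdown libraries lie between 74.6 and 131 CPM, below that line, while the controls reach 353 CPM.

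Tnfaip3 (ENSMUSG00000019850), the gene of A20, the ubiquitin-editing enzyme to which ABIN1 binds, did not share this pattern. It was lower than in the own control in 7 of 10 knockdown libraries. It was at 50.4 and 42.3 CPM in control and shRNA 1 of the first 42-3 set, at 185 and 186 CPM in control and shRNA 2 of the second 42-3 set, and at 102 and 266 CPM in control and shRNA 1 of 6-2. In liver lines it was at 426 and 72.3 CPM (first 42-2), at 75.7 and 55.05 CPM (second 42-2) and at 228 and 393 CPM (13-2). In G45-2 Tnfaip3 was at 187 CPM in the control and 53.8 and 47.8 CPM with shRNA 1 and 2, and in 6-3 at 507, 55.2 and 109 CPM. The lines differed in direction, with the knockdown above the control in 6-2 and 13-2 and at 10.9% to 28.7% of it in first 42-2, G45-2 and 6-3. The fitted difference was -0.83 (SE 0.45, limma adjusted p = 0.368), which did not pass the threshold of 0.05. It was -0.52 without the 6-3 set (adjusted p = 0.670), -1.87 without the 5 sets of differing identity transcripts (adjusted p = 0.299) and -2.28 without the second 42-2 set as well (adjusted p = 0.176). The controls of line 42-2 already differed 5.63-fold from each other.

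Nfkbia (ENSMUSG00000021025) encodes IkBa, the classic inhibitor that is degraded on activation and rapidly made again from its own kB-driven promoter. It was lower in 9 of 10 knockdown libraries, the exception being 13-2 (527 CPM in the control and 725 CPM with shRNA 1). The 6-3 set had the widest gap, with 727 CPM in the control, 96.95 CPM with shRNA 1 and 43.2 CPM with shRNA 2. In G45-2 Nfkbia was at 259.6, 78.1 and 71.9 CPM in the same order. The other pairs of control and knockdown were 77.5 and 60.7 CPM (first 42-3), 293 and 278 CPM (second 42-3), 386 and 173 CPM (6-2), 584 and 358 CPM (first 42-2), and 410.1 and 324 CPM (second 42-2). In the second 42-3 set the values thus hardly differed, and the groups overlapped over most of their range. The fitted difference was -1.11 (SE 0.39, limma adjusted p = 0.184), and it was -0.62 without the 6-3 set (adjusted p = 0.410), and -1.97 and -2.62 without the 5 and without the 6 sets (adjusted p = 0.368 and 0.192).

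Nfkbie (ENSMUSG00000023947), the gene of IkBe, a further cytoplasmic inhibitor, was lower in 9 of 10 knockdown libraries. The controls ranged from 12.2 to 56.2 CPM (median 26.1) and the knockdowns from 5.05 to 28.9 CPM (median 16.9). The exception was 6-2, with 14.6 CPM in the control and 25.1 CPM with shRNA 1, and the lowest share was that of shRNA 2 in 6-3, with 22.1 CPM in the control and 5.16 CPM in the knockdown. The fitted difference was -0.77 (SE 0.26, limma adjusted p = 0.180), and it was -1.17 without the 6 sets.

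Nfkbiz (ENSMUSG00000035356) encodes IkBz, an atypical nuclear IkB protein that is needed for the induction of a subset of NF-kB targets. Here the lung and liver sets went opposite ways. In lung lines it was at 43.5 and 229 CPM in control and knockdown of the first 42-3 set, at 170.1 and 248 CPM in the second 42-3 set, and at 107 and 246 CPM in 6-2. In liver lines it was at 505 and 109 CPM (first 42-2), at 277 and 63.4 CPM (second 42-2) and at 658 and 296 CPM (13-2). In G45-2 Nfkbiz was at 187 CPM in the control and 134 and 128 CPM with shRNA 1 and 2, and in 6-3 at 485, 69.3 and 84.4 CPM. It was thus higher in 3 of 3 lung sets and lower in 5 of 5 liver sets, a pattern that 122 of 12931 genes (0.943%) showed. The mean knockdown difference over all sets was -0.69 (SE 0.50, limma adjusted p = 0.512). It was -0.35 without the 6-3 set, -1.04 without the first 42-3 set, and -1.72 and -1.58 without the 5 and without the 6 sets. Its test between the sites is given with the lung and liver comparison.

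Birc3 (ENSMUSG00000032000) encodes cIAP2, a ubiquitin ligase at TNF receptor complexes that inhibits apoptosis. It was lower than in the own control in 10 of 10 knockdown libraries, as were Tnip1 and 203 of 12931 genes in all (1.57%). Among the members no gene other than these had this direction throughout. In lung sets it was at 11.6 and 5.91 CPM in control and knockdown of the first 42-3 set, at 45.3 and 12.1 CPM in the second 42-3 set, and at 21.6 and 11.9 CPM in 6-2. In liver sets it was at 62.0 and 16.8 CPM (first 42-2), at 18.8 and 10.1 CPM (second 42-2) and at 37.1 and 12.9 CPM (13-2). In G45-2 Birc3 was at 16.4 CPM in the control and 10.7 and 14.2 CPM with shRNA 1 and 2, and in 6-3 at 75.2, 35.2 and 16.5 CPM. The ranges of the groups overlap, and the controls alone spanned 6.46-fold. Birc3 had the largest fitted difference of the members (-1.21, SE 0.25), and its limma adjusted p of 0.0861 did not pass. Over the alternatives this p ranged from 0.0812 to 0.445, and the difference was -0.91 without the 5 sets of differing identity transcripts.

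**Figure D2:**
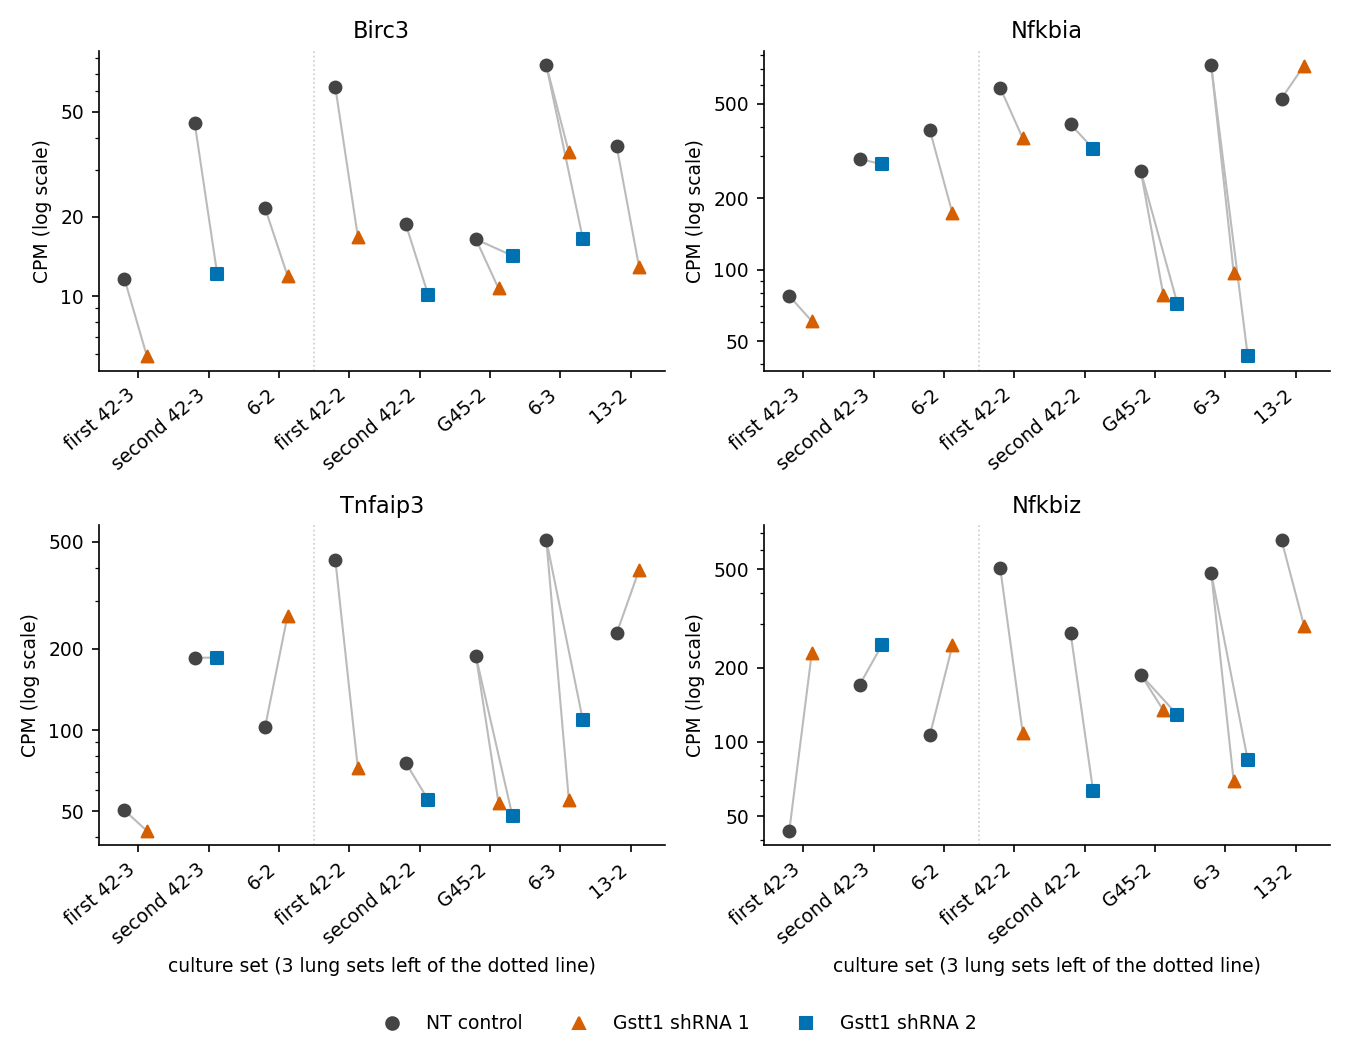
Levels of Birc3, Nfkbia, Tnfaip3 and Nfkbiz in CPM (log scale) in each library by culture set, with lung sets left of the dotted line and symbols as in the key. Birc3 is lower with knockdown in all 8 sets, Nfkbia in all but 13-2, and Nfkbiz is higher with knockdown in the 3 lung sets and lower in the 5 liver sets.

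The subunit genes had smaller fitted differences than the other members with all sets in the fit. Nfkb1 (ENSMUSG00000028163), the gene of p105 and p50, was at 67.6 ± 17.8 CPM in controls and 61.6 ± 15.7 CPM after knockdown (SD, n = 8 and 10), and was lower in 7 of 10 knockdown libraries. Its fitted difference was -0.18 (SE 0.19, 95% interval -0.60 to 0.24, limma adjusted p = 0.666). It was -0.05 without the 6-3 set, -0.11 without first 42-2, -0.29 without 6-2, and -0.48 and -0.59 without the 5 and without the 6 sets. Nfkb2 (ENSMUSG00000025225), the gene of p100 and p52 of the noncanonical branch, was at 138 ± 54.7 and 103 ± 43.9 CPM and lower in 6 of 10 libraries. Its difference was -0.47 (SE 0.21, adjusted p = 0.282), and the lowest shares of control were 36.3% with shRNA 2 in 6-3, 39.96% in the second 42-3 set and 44.9% in the first 42-3 set. Neither gene was below its control throughout, since Nfkb1 was at 215% of it in 6-2 and Nfkb2 at 133%.

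Rela (ENSMUSG00000024927) encodes p65, the main activating subunit. It was at 241 ± 97.8 CPM in controls and 179.6 ± 49.9 CPM after knockdown (SD, n = 8 and 10) and lower in 5 of 10 knockdown libraries, with a difference of -0.37 (SE 0.23, limma adjusted p = 0.426). The direction turned to 0.13 without the 5 sets of differing identity transcripts (adjusted p = 0.892). Relb (ENSMUSG00000002983), the partner of p52, was at 51.8 ± 15.7 and 39.0 ± 13.8 CPM and lower in 7 of 10 libraries, with a difference of -0.43 (SE 0.22, adjusted p = 0.335), which was -0.28 without the 6-3 set. Rela and Relb were both above control in G45-2 and first 42-3 and both below it in the second 42-3, 6-2, first 42-2 and 13-2 sets.

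Besides Tnip1, whose direction was fixed by its choice, all 9 members had a fitted knockdown difference below 0, with a median of -0.69, against 53% of all genes below 0 and a median of -0.03. Of the 9 members that carry a test, 0 passed, and limma called 5 of 12931 genes in either direction (0.0387%), while edgeR called 0. At an unadjusted p under 0.05 limma had 2216 genes (17.1%) and edgeR 1944. The number of members below the own control, Tnip1 among them in every library, ranged from 5 of 10 in 6-2, where the median over members was -0.03, to 10 of 10 with shRNA 2 in 6-3, where it was -1.70. The other liver knockdown libraries had 7 to 9 and the 42-3 libraries 6 and 8. Across all genes 41.7% to 58.7% were below the own control in these libraries. The epithelial marker sum was also lower in 8 of 10 knockdown libraries, that of macrophage and leukocyte markers in 7 and that of fibroblast markers in 2, and their part in these counts was not tested.

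Without the 5 sets of differing identity transcripts, 6 of the 9 members other than Tnip1 were lower than control in each of the 5 remaining knockdown libraries, namely Tnfaip3, Nfkbia, Nfkbie, Nfkbiz, Birc3 and Nfkb1, against 11.6% of all genes. Of these the groups did not overlap for Nfkbiz and Nfkb1 (2.58% of all genes). With the second 42-2 set left out as well, the same 6 were lower in all 4 knockdown libraries of G45-2 and 6-3 (19.4% of genes), and 5 of them, all but Birc3, did not overlap (11.0%). Tnip1 does so in any subset by its choice. Nfkb2, Rela and Relb were instead above control in both G45-2 libraries. These counts rest on 3 or 2 control libraries.

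**Figure D3:**
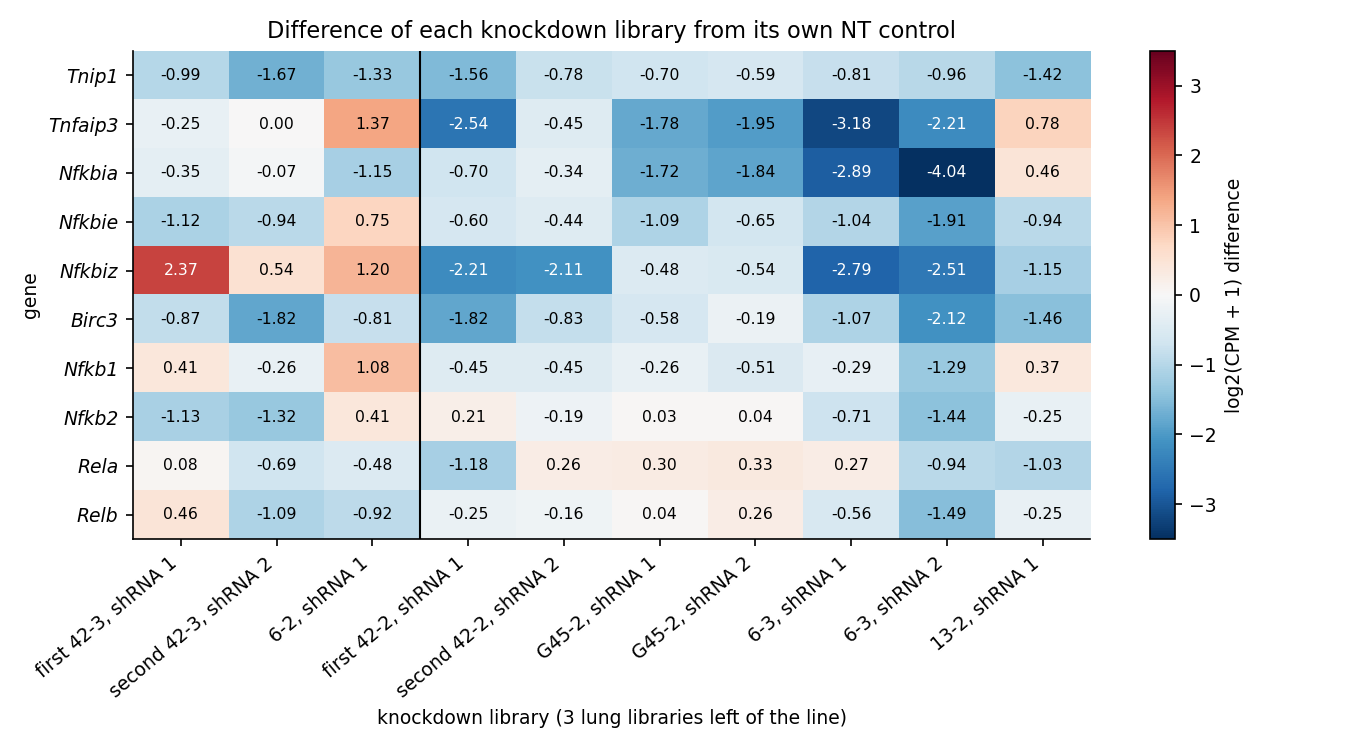
Difference in log2(CPM + 1) of each knockdown library from its own NT control, with genes in rows, libraries in columns and lung libraries left of the black line; blue is lower and red is higher than control. Tnip1 and Birc3 are below 0 in all 10 columns, Nfkbiz is positive in the 3 lung columns and negative in the 7 liver columns, values beyond the colour scale take its darkest shade, and the widest is -4.04 for Nfkbia with shRNA 2 in 6-3.

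For Tnip1 the difference between the hairpins was 0.08 (shRNA 2 minus shRNA 1, 95% interval -0.45 to 0.61, limma adjusted p = 0.9999), which did not pass. The choice of Tnip1 put the libraries of both hairpins below the lowest control, so closeness between them is partly given by it. Its interval does not show that the hairpins act alike on it. None of the other members passed either, and limma called 0 of 12931 genes between the hairpins (0%, 64 at an unadjusted p under 0.05; edgeR called 0, with 57 unadjusted). The widest member difference was that of Nfkb1, -0.71 (95% interval -1.38 to -0.05, adjusted p = 0.9999). Where both hairpins were used in the same line, Nfkb1 was at 57.7 CPM with shRNA 1 and 48.4 CPM with shRNA 2 in G45-2, and at 64.0 and 31.4 CPM in 6-3. In 6-3 all members but Tnfaip3 and Nfkbiz were lower with shRNA 2 than with shRNA 1. Fitted differences were below 0 for 8 of 10 members, against 55.5% of all genes. The 95% intervals of Tnfaip3 (-1.52 to 1.56), Nfkbia (-1.81 to 0.83) and Nfkbiz (-2.12 to 1.34) are wide, so these data do not show that the hairpins act alike on them.

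The lung lines were compared with the liver lines to see whether the knockdown difference depends on the site of the metastasis. This fit took the 8 culture sets as blocks and did not average to the 6 lines (2 lung and 4 liver). Lines 42-3 and 42-2 thus enter with 2 sets each, and G45-2 and 6-3 with 2 knockdown libraries each. The SEs, intervals and p-values of this comparison therefore do not measure the spread between lines. For Nfkbiz the difference between the sites was 3.06 (SE 0.55, 95% interval 1.83 to 4.28), the largest of the members, with a limma adjusted p of 0.0683 that did not pass. Across 15 alternatives it stayed between 2.59 and 3.49, with adjusted p from 0.0580 to 0.161. Tnfaip3 had the next largest difference, 1.85 (SE 0.79, adjusted p = 0.256), followed by Nfkbia (0.78, adjusted p = 0.640, but 0.29 without the second 42-3 set, 0.16 without 6-3 and 1.18 without 6-2) and Nfkb1 (0.73, adjusted p = 0.294). For Tnip1 it was -0.30 (95% interval -0.99 to 0.38, adjusted p = 0.641) and for Birc3 0.01 (95% interval -1.15 to 1.17). Limma called 24 of 12931 genes here (0.186%) and edgeR 9, and 0 members were among those that limma called. The lung sets are all among the 5 whose identity transcripts differ, together with the liver sets first 42-2 and 13-2. Within those 5 the Nfkbiz differences were 2.37, 0.54 and 1.2 in the lung sets and -2.21 and -1.15 in the liver sets. The lung sets differed in 5 or 6 of the 7 transcripts and these liver sets in 2, and the part of this in the result was not tested.

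In the NT controls the members leaned towards higher levels in liver lines, 9 of 10 being below 0 for lung minus liver against 54.0% of all genes, although none passed (limma called 4 genes, 0.0309%, and edgeR, which took the 8 controls as separate libraries, 1). Nfkbiz differed most, by -2.0 (SE 0.47, limma adjusted p = 0.201). Its 3 lung controls (43.5, 107 and 170.1 CPM) all lay below its 5 liver controls (187 to 658 CPM), as was the case for 918 genes (7.1%). Tnfaip3 was next at -1.32 (SE 0.43, adjusted p = 0.290), and Tnip1 was at -0.07 (95% interval -0.84 to 0.70). The direction of Tnip1, Rela and Relb turned on leaving out 1 line, Tnip1 ranging from -0.17 to 0.17. These differences use the same control libraries as the comparison of the knockdown differences, so that a low control lowers the one and raises the other.

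**Figure D4:**
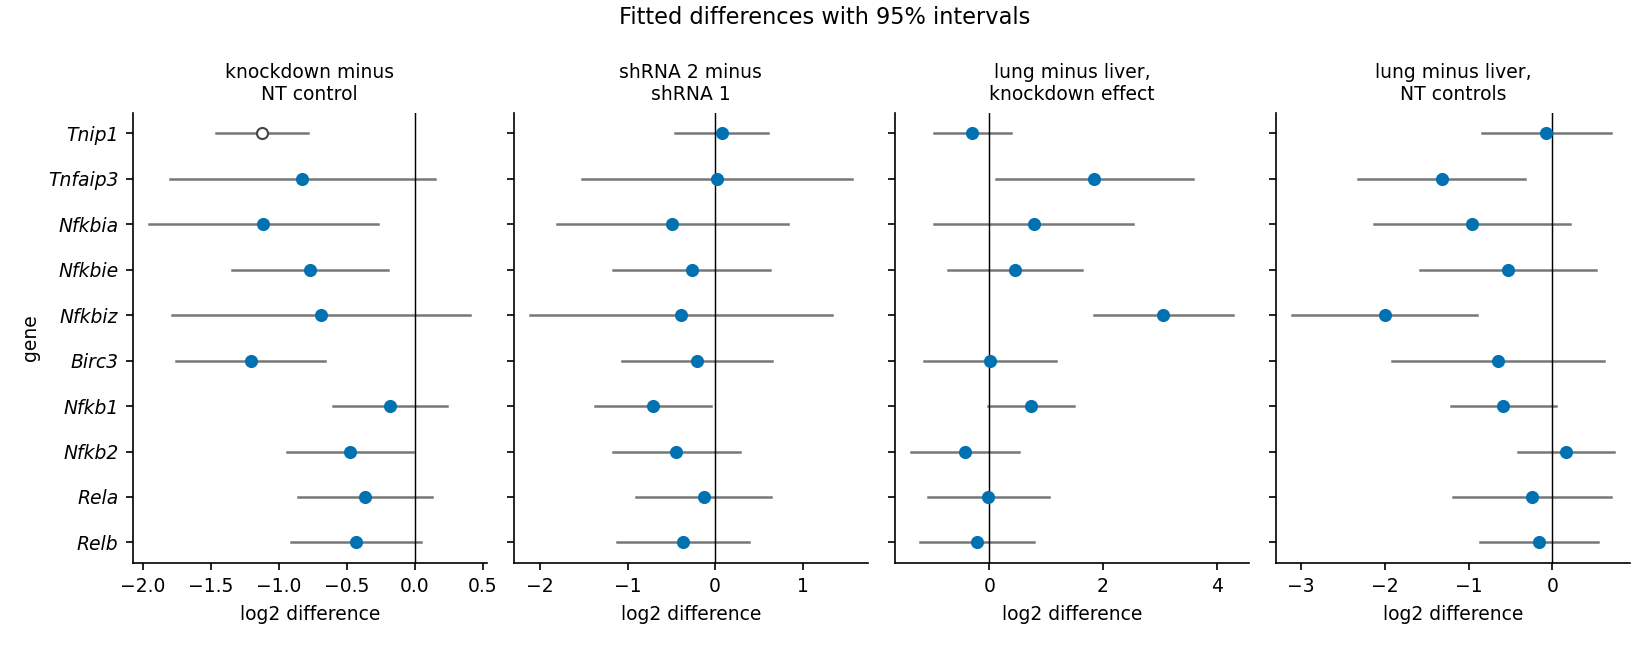
Fitted log2 differences of the 10 members (points) with 95% intervals (lines) from limma in 4 comparisons, each panel with its own horizontal scale and a vertical line at 0; the open point is Tnip1 in the knockdown comparison, which carries no test. All 10 points lie below 0 for knockdown, and Nfkbiz stands at 3.06 for the lung minus liver knockdown difference and at -2.0 for the lung minus liver controls.

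The rest of the pathway was described by 7 lists holding 118 genes, of which 113 are in the table and 110 were tested. In the knockdown comparison 80 of the 110 were below 0, with a median of -0.24, and 0 passed. Of all genes 53.0% were below 0, with a median of -0.03. The targets outside the members were lowest together with the ligands: 29 of 32 targets were below 0 (median -0.77) and 5 of 6 ligands (median -1.49). Of the receptors 14 of 16 were below 0 (median -0.30). The other lists had 15 of 25 adaptors and ubiquitin ligases below 0 (median -0.18), 4 of 7 kinases (-0.06), 3 of 9 other subunits and IkB proteins (0.04) and 10 of 15 other inhibitors of the receptor complexes (-0.07).

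Among the targets, the AP-1 subunit gene Junb was at 1805 ± 1098 CPM in controls and 697 ± 395 CPM in knockdown libraries (SD, n = 8 and 10), with a difference of -1.26 (SE 0.26, limma adjusted p = 0.0820). Csf3, the gene of granulocyte colony-stimulating factor, had a difference of -3.32 (SE 0.71, adjusted p = 0.0919). The cytokine Tnf, both an activator and a target of NF-kB, was at 7.67 ± 11.7 and 0.523 ± 0.413 CPM (adjusted p = 0.119), and Il18 at 8.20 ± 4.10 and 3.35 ± 2.53 CPM (adjusted p = 0.148). Each of the 4 was lower in 9 of 10 knockdown libraries.

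Tnip3, the paralog of Tnip1, was at 32.8 ± 31.3 CPM in controls and 6.60 ± 6.79 CPM in knockdowns, with a difference of -1.86 (SE 0.48, limma adjusted p = 0.119), and Itch, a ubiquitin ligase that works with A20, was at 81.6 ± 31.6 and 124 ± 21.7 CPM (0.74, SE 0.18, adjusted p = 0.112). Of the receptors, Tnfrsf11a (RANK) had a difference of -1.07 (adjusted p = 0.179) and Il18r1 of -1.01 (adjusted p = 0.201), the latter from a mean of 1.66 CPM in controls. Of the relay genes, the adaptor Tradd had -0.57 (adjusted p = 0.186), the kinase gene Map3k7 (TAK1) 0.60 (adjusted p = 0.207), Ikbke -1.02 (adjusted p = 0.121) and Ikbkg (NEMO) 0.40 (adjusted p = 0.381). Nfkbib (IkBb) had -0.48 (adjusted p = 0.203) and Bcl3, a nuclear IkB protein, -0.73 (adjusted p = 0.231). None of these passed the threshold, so their directions are given as values only.

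Between lung and liver lines the knockdown difference of the targets was above 0 for 23 of 32, with a median of 1.44 against 0.02 for all genes. It was below 0 for 9 targets, and for 49.2% of all genes. Of the targets 1 passed, C3 (ENSMUSG00000024164, complement component 3), named after its value was seen, at 8.40 (SE 1.30, limma adjusted p = 0.0309). As for Nfkbiz, the fit is over culture sets, so this SE and p do not measure the spread between lines. C3 was at 0.810, 84.8 and 3.09 CPM in controls and at 25.6, 183 and 219 CPM in knockdowns of the first 42-3, second 42-3 and 6-2 sets. In liver sets it was at 109 to 2638 CPM in controls and at 0 to 59.2 CPM in knockdowns, the 0 being shRNA 2 in 6-3, where a count of 0 allows up to 0.250 CPM. Its direction by site was that of Nfkbiz. The call was lost with edgeR (adjusted p = 0.153), without the filter on low values (0.0681), without the replicate block (0.111) and without any of 6 of the 8 sets, all but first 42-2 and G45-2, over which leave-one-out adjusted p ranged from 0.0255 to 0.0878.

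**Figure D5:**
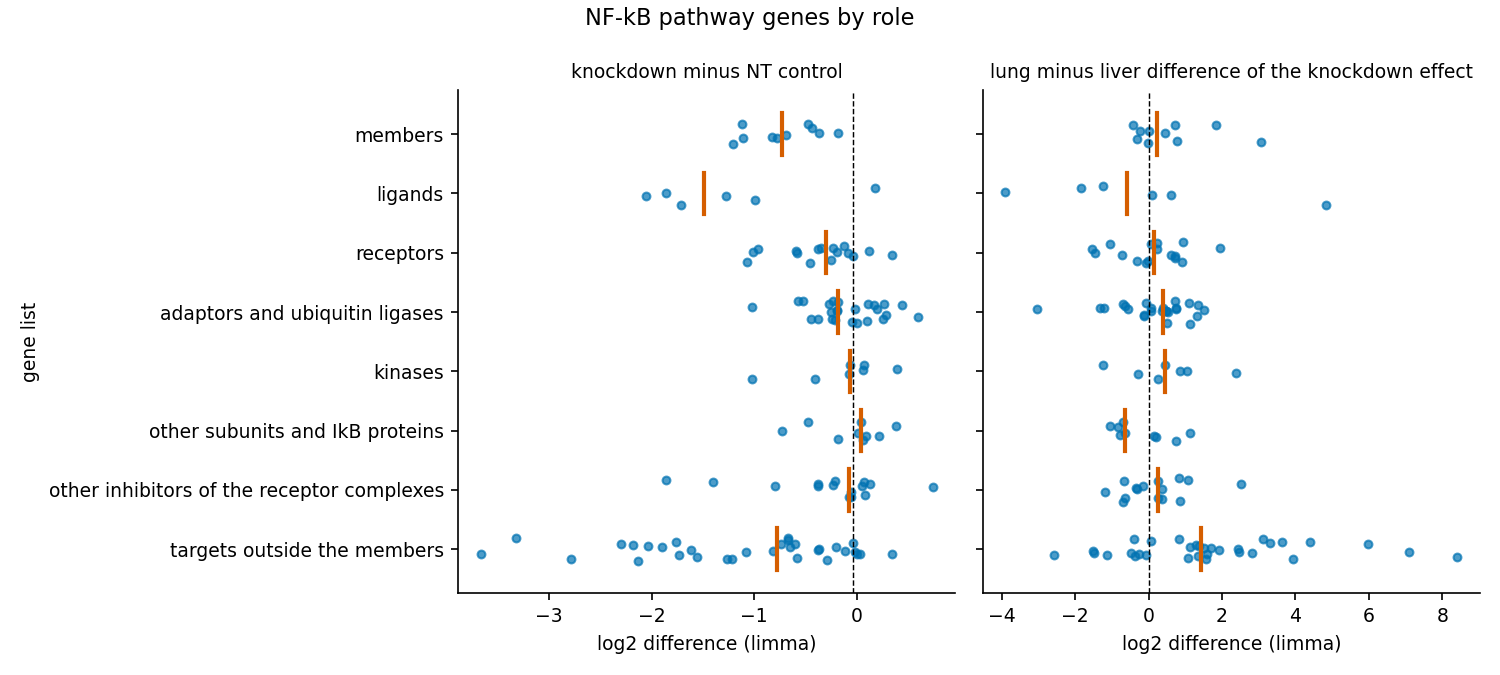
Fitted log2 differences of each tested gene (points) of the members and of the 7 pathway lists, for knockdown minus NT control (left) and for the lung minus liver difference of the knockdown effect (right); vertical bars are list medians and the dashed line is the median of all genes. Members (-0.73, Tnip1 included), ligands (-1.49) and targets (-0.77) have the lowest medians on the left, and targets have the highest (1.44) on the right.

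The genes whose levels were most like Tnip1 over the 18 libraries were 1700003F12Rik (Pearson r = 0.90), Rab20 (0.89), Pdzk1ip1 (0.89), Gnb5 (0.87) and Fam117a (0.87). Part of this likeness is the knockdown difference itself, and within the 8 controls r was 0.73, 0.88, 0.84, 0.73 and 0.68, within the 10 knockdowns 0.65, 0.60, 0.33, 0.34 and 0.76. Rab20, a gene of an endosomal GTPase, was at 24.8 ± 11.8 CPM in controls and 10.0 ± 4.29 CPM after knockdown (SD, n = 8 and 10). Of the other members Birc3 was most like Tnip1 (r = 0.72), then Rela (0.61) and Nfkbie (0.53), and Nfkb1 the least (0.20). The libraries share lines and controls, so these values are a description.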

How the data were processed

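The deposited table gives CPM (read counts scaled to the library total) per gene for 18 RNA-seq libraries, as the authors computed it. The submitters' processing notes name mm9 as the genome build. Part of the genotype labels is not reported here. Neither aligner nor counter is given in the sources used here. All CPM values were whole reads within 0.01 once scaled, so each library's total could be recovered, and no libraries looked like copies of each other (smallest chi-square per degree of freedom 33.0). The listed genes hold 99.0% to 99.6% of each total. The table repeats 32 gene symbols, none of them a member.

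Genes that reached 1 CPM in 4 or more libraries were fitted on log2(CPM + 1) with limma 3.58.1 (trend, R 4.3.3), the culture set as a block, and p-values adjusted by Benjamini-Hochberg over all genes tested, with a threshold of 0.05. A log2 difference on this scale understates the change of low genes. Lung and liver controls were compared over the means of 6 lines. The lung and liver knockdown difference was fitted over the 8 culture sets, without averaging to lines. The fits were also run on simulated reads in which a changed gene had the same effect in each affected library. Differences in these data vary between sets, so that run does not show how the fits perform here. The alternative edgeR 4.0.16 (quasi-likelihood, TMM) was run on the recovered reads and called 0 genes for knockdown, 0 for hairpin, 9 for the lung and liver knockdown difference and 1 for the controls. Other alternatives were pseudocounts of 0.5 and 2, no filter, CPM of at least 5, rescaling by median ratios, no replicate block, and leaving out sets or lines.

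The pairing of knockdown and control follows the culture sets, which were grouped here and are not named in the sample titles. In the 2 lines with 2 NT controls each, a knockdown could also be set against the other control of its line. Values relative to the own control rest on this choice there. Deviations from the group means were correlated between each knockdown and its own control, with r from -0.36 to 0.70 (median 0.02), with 4 of 10 above 0.1. The members and gene lists were chosen with earlier results of these data known. Beyond the members, the 2 genes of smallest p were named from each pathway list, and the 5 of highest r with Tnip1. Tables and figures were made with Python 3.11.15, pandas 2.3.3, numpy 2.4.6 and matplotlib 3.10.9.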

Additional observations from a re-analysis of the deposited data

Results flagged for a closer look

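A single library stood apart from the rest of its group in 4 of 30 groups of member values. The rule flags about 1 in 20 groups when values are independent and normally spread. These groups mix lines and share libraries, so the count cannot be compared with that rate. Birc3 was at 35.2 CPM with shRNA 1 in 6-3, the next highest shRNA 1 library being at 16.8 CPM. Nfkb2 was at 260.3 CPM in the second 42-3 control, above the next control at 165 CPM. It was at 38.7 CPM with shRNA 2 in 6-3, below the next library at 104 CPM. Relb was at 17.7 CPM in the first 42-3 control, below the next control at 45.9 CPM.

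Nfkbiz differed between lung and liver lines in its knockdown difference, by 3.06 on the log2 scale, with a limma adjusted p of 0.0683 that did not pass. It was higher in all 3 lung sets and lower in all 5 liver sets.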

How the results depend on the processing

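The number of genes called for knockdown, 5, was 84 with no replicate block. It was 0 with no filter on low values (2465 at an unadjusted p under 0.05), with edgeR (1944), without the 5 sets of differing identity transcripts (1314) and without these and the second 42-2 set (1469). Leaving out 1 set at a time gave 0 to 8, with 8 without first 42-3, 3 without G45-2 and 0 without any other. For the lung and liver knockdown difference, 24 genes became 9 with edgeR, 2 with no replicate block and 0 to 48 without 1 set (0 without first 42-3, 3 without second 42-3, 6 without G45-2, 15 without 6-3, 39 without 6-2 and 48 without first 42-2). For the lung and liver controls, 4 genes became 2 with a pseudocount of 0.5, 18 with no filter, 14 with CPM of at least 5, 1 with edgeR and 0 to 159 without 1 line (159 without 6-3, 7 without G45-2 and 0 without any other). The hairpin comparison gave 0 genes in each alternative run.

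None of the 9 members tested for knockdown, and none of the 10 in the other comparisons, passed in any of these alternatives. Of the member values 576 kept their direction while 34 turned it. Of the knockdown differences only that of Rela turned (0.13 without the 5 sets). Between hairpins, Tnip1 was at -0.0083 with no replicate block, -0.0186 without the 5 and -0.0183 without the 6 sets. Tnfaip3 was at -0.083 with edgeR, -0.22 with no replicate block and -0.24 to 0.32 without 1 set. Nfkbie was at 0.024 with no replicate block and -0.56 to 0.039 without 1 set, and Nfkbiz at 0.012 and 0.11 without the 5 and the 6 sets. Birc3 ranged from -0.52 to 0.18 and Rela from -0.30 to 0.32 without 1 set. For the lung and liver knockdown difference, Birc3 was at -0.0020 with a pseudocount of 0.5, -0.021 with no replicate block and -0.16 to 0.35 without 1 set, and Rela at 0.059 with no replicate block and -0.24 to 0.18. Nfkbie ranged from -0.12 to 0.84 and Relb from -0.66 to 0.0496. For the controls without 1 line, Tnip1 ranged from -0.17 to 0.17, Rela from -0.43 to 0.0305 and Relb from -0.58 to 0.26. The causes were not tested.

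Chosen after seeing the data, the count of members lower in every knockdown library was 2 with all sets and 7 both without the 5 and without the 6 sets, and the count not overlapping was 1, 3 and 6, Tnip1 included in each by its choice. Of all genes 1.57%, 11.6% and 19.4% were lower throughout in these 3 settings. All controls lay above all knockdowns for 0.0851%, 2.58% and 11.0% of genes, so both shares also rise as sets are left out. The lung and liver knockdown difference has no lung set left without these sets, and the control comparison has no replicate block to drop.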

Other observations

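Member levels were related to each other over the 8 controls, with Pearson's r above 0 for 45 of 45 pairs (0.16 to 0.90, median 0.62). The highest was that of Tnfaip3 with Birc3 (0.90), followed by Nfkbia with Nfkbiz (0.89). For the differences of the 10 knockdown libraries from their own controls, r was above 0 for 36 of 45 pairs (-0.51 to 0.84, median 0.34). Birc3 with Rela (0.84) and Tnip1 with Rela (0.83) were the highest, and Tnip1 with Nfkbia the lowest (-0.51). These values are descriptions over libraries that share lines, and differences within G45-2 and 6-3 share a control.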
